A study of Mus musculus with 8 samples.

Results

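The sites described here are 5280 called adenines whose polymerase kinetics fitted N6-methyladenine poorly. They were taken from 4 deposited lists of called adenines with 17418 sites in all. They were chosen by a measured value. A site was taken when its identification score, the caller's own measure of fit to N6-methyladenine, was 5 or less. The lowest identification score in the lists was 3, so the chosen sites held the values 3, 4 or 5. Sites in 4 regions dense in calls were left out, namely the unplaced contig JH584304, chromosome 9 from 3 to 3.1 Mb, chromosome 14 from 19.4 to 19.5 Mb and chromosome 2 from 98.6 to 98.7 Mb (mm10). These regions held 1595 sites, of which 232 had a score of 5 or less. Outside them 15823 sites remained, and the 10543 with a score over 5 are called the other sites.

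N6-methyladenine is an adenine with a methyl group on its exocyclic nitrogen, best known in bacterial DNA and described in mammalian DNA at low levels. In single-molecule real-time sequencing a polymerase copies 1 DNA molecule while each incorporation is timed, and some modified template bases slow it down. The inter-pulse duration (IPD) ratio sets the time at a base against the time predicted for unmodified DNA of the same sequence. A call therefore rests first on slowing at an adenine, and the identification score adds how far the kinetics resemble those of N6-methyladenine in particular. Poor-fit sites are adenines at which a slowing was called while that resemblance was weak.

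The cells were mouse TT2 embryonic stem cells on a C57BL6 x CBA background, kept off feeders and taken at passage 5 to 10. The first genotype carried a knockout (KO) of Alkbh1, a dioxygenase gene of the AlkB family, and the second was wild type (WT). Native chromatin was immunoprecipitated with a customized antibody against the histone variant H2A.X, and its DNA was separated by length and sequenced as long (L) and short (S) DNA, which gave the groups KO L, WT L, KO S and WT S. Each group had 2 replicates and 1 list for both, so no comparison between lists has a replicate check. The labels mention repeated sequencing and do not say whether replicates came from separate cultures. Whether the KO line was 1 clone was not given in the sources used here. Alkbh1 itself (chromosome 12, 87428077 to 87443839) held 0 poor-fit and 0 other sites, which does not test the knockout.

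Poor-fit sites made up a somewhat larger share of the L lists than of the S lists, and this share is fixed by the cut, so nothing is read from its size. KO L held 993 among 2691 sites outside the regions (36.9%, exact 95% interval 35.1% to 38.8%). WT L held 1243 of 3501 (35.5%, 33.9% to 37.1%). KO S held 991 of 3025 (32.8%, 31.1% to 34.5%) and WT S held 2053 of 6606 (31.1%, 30% to 32.2%). Over the 4 lists the share was 33.4%, and counts of poor-fit sites in genes, chromosomes and contexts below are read against it. Intervals here and below treat sites as independent and cover counting error only, and reads at a base need not come from different molecules.

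A few contexts show what these sites look like. The sites below had the highest coverage, IPD ratio or score among the poor-fit sites of their list, and the last was the single poor-fit base that a second list also called. Each context has 41 bases as deposited, read on the strand of the call, with its mm10 position. Capitals mark the called adenine and the base on each side of it.
KO L, highest coverage, chr9:35305306-35305346, minus strand: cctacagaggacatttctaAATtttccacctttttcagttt
KO L, highest IPD ratio, chr7:89162062-89162102, minus strand: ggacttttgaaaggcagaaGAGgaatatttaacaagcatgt
KO L, highest score, chr5:3902292-3902332, plus strand: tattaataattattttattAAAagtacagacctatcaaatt
WT L, highest coverage, chr9:24542026-24542066, plus strand: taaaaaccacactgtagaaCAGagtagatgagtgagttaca
WT L, highest IPD ratio, chr3:9452437-9452477, minus strand: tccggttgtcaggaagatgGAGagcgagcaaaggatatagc
KO S, highest coverage, chr9:35305367-35305407, plus strand: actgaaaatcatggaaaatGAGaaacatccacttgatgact
KO S, highest IPD ratio, chr1:170730511-170730551, plus strand: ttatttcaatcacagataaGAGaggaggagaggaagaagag
KO S, highest score, chr4:85035264-85035304, minus strand: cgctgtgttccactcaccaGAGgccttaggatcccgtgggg
WT S, highest coverage and score, chr12:3110074-3110114, minus strand: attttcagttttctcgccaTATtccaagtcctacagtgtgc
WT S, highest IPD ratio, chr14:54047776-54047816, plus strand: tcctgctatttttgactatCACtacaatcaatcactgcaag
WT S, second highest score, chr5:64160133-64160173, minus strand: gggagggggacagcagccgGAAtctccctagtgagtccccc
WT S, called in 2 lists, chrUn_GL456389:10674-10714, minus strand: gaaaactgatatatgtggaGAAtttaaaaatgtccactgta

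The 3 deepest sites showed little slowing. At the KO S site on chromosome 9 the coverage was 2501, the IPD ratio 1.43 and the deposited modified fraction 12.4%, with an identification score of 3. At the KO L site 61 bases away, on the other strand, the coverage was 908, the IPD ratio 1.32 and the modified fraction 8.4%. Both positions fall within the bounds of Gm33838, an annotated locus. From its start to just past the call, the KO S context nearly matched that of another KO S poor-fit site. That site lies on the unplaced contig GL456392 (position 22171) and had a coverage of 80. No repeat annotation was used, and whether the reads at these deep sites come from repeated sequence was not tested. The locus name therefore does not show where those reads came from. The WT S site on chromosome 12 had a coverage of 757, an IPD ratio of 1.55 and a modified fraction of 3.4%. Coverage at these 3 bases was far above the median of 10 over all poor-fit sites, and no other poor-fit site exceeded a coverage of 80.

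The highest IPD ratio of each list stood at a coverage of 6 to 17. The WT S site on chromosome 14 had an IPD ratio of 131 at a coverage of 6. It lies in the T cell receptor loci Tcra and Tcrd. The KO L site on chromosome 7 had an IPD ratio of 52.2 at a coverage of 17 and lies in Tmem135, a transmembrane protein gene. In KO L another site, on chromosome 2 (116371353, plus strand, in no gene), reached 35.6 at a coverage of 9. In KO S the highest ratio was 18.5 at a coverage of 10, in Atf6, which encodes a transcription factor of the endoplasmic reticulum stress response. The WT L maximum was 13.96 at a coverage of 8, in Zfp704, a zinc finger gene. A single ratio at such depth rests on few passes, and an IPD ratio of 10 or more was seen at 29 poor-fit sites (0.549%) and 125 other sites (1.19%).

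High scores with a poor fit were rare. The score of a call states how strongly slowing was called, and 20 was its lowest value. The WT S site on chromosome 5 had a score of 59 with an identification score of 3, an IPD ratio of 3.58 and a modified fraction of 98.5% at a coverage of 17. It lies in Tbc1d1, which encodes a Rab GTPase-activating protein, and within a window of 250 bases before to 50 bases after an annotated start. The KO S site on chromosome 4 had a score of 55 and lies in Cntln, a centrosomal protein gene, and the KO L site on chromosome 5 (score 54) lies in no gene. Of the sites with a score of 50 or more, 8 of 118 were poor fits (6.78%), against 2481 of 6041 at a score of 20 to 22 (41.1%).

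The share of poor fits varied with coverage. Coverage comes from the same reads as the scores, so these values are a description. Over the 4 lists the share of poor-fit sites was 40.4% at a coverage of 6 to 7 (1341 of 3318 sites), 36.6% at 8 to 10, 31.7% at 11 to 15, 28.3% at 16 to 24, 25.5% at 25 to 49 and 13% at 50 or more (13 of 100). Each list declined over the first 5 classes, from 42.9% to 22.2% in KO L, 41.8% to 26.5% in WT L, 39.6% to 24% in KO S and 37.3% to 26.1% in WT S. Median coverage of poor-fit and other sites was 9 and 10 in both L lists, 10 and 11 in KO S, and 13 and 14 in WT S. Odds ratios and differences below were therefore taken within strata of coverage, called like coverage, while plain shares were not.

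**Figure D1:**
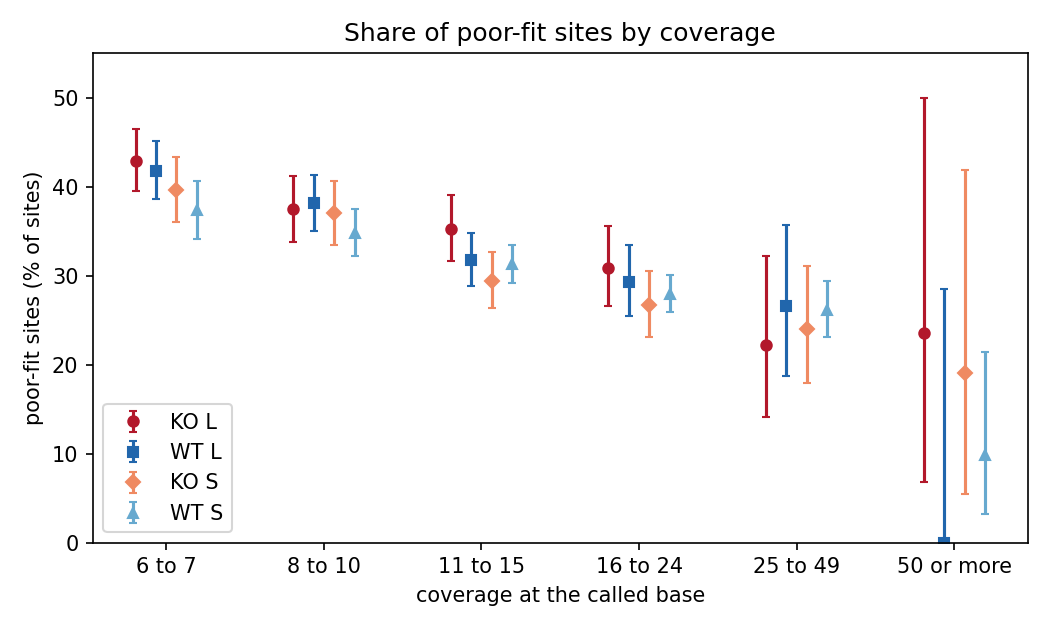
Share of poor-fit sites (% of sites outside the 4 regions) by coverage at the called base, for the 4 lists; bars are exact 95% intervals. The share was 40.4% over the 4 lists at a coverage of 6 to 7 and 25.5% at 25 to 49.

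The cut at 5 fell on a smooth slope. Scores of 3, 4 and 5 held 1351, 2243 and 1686 sites, and the scores just outside, 6 and 7, held 1417 and 1204. Median IPD ratio was 2.50, 2.54 and 2.57 at scores of 3, 4 and 5, and 2.61 and 2.67 at 6 and 7. Median coverage was 10 at each of the first 3 scores and 11 at 6 and 7. Sites just inside and just outside the cut thus differed by little in kinetics.

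Slowing was weaker at poor-fit sites than at other sites of like coverage, in each list. The median IPD ratio was 2.54 at poor-fit sites and 2.80 at other sites in KO L, 2.52 and 2.79 in WT L, 2.59 and 2.89 in KO S, and 2.50 and 2.77 in WT S. Without matching on coverage the gap was smaller, at -0.21 against -0.27 over the 4 lists. The median score was 1 or 2 lower in each list. The modified fraction, given at coverage of 11 or more only, had a median of 66.2% and 74.3% in KO L, 67.4% and 78.4% in WT L, 69.7% and 84.5% in KO S, and 67.3% and 77.1% in WT S, poor-fit sites first. A fraction of 90% or more was listed at 660 of 2594 poor-fit sites (25.4%) and 2203 of 6235 other sites (35.3%). These measures come from the same kinetics as the identification score, so no test was made on them.

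**Figure D2:**
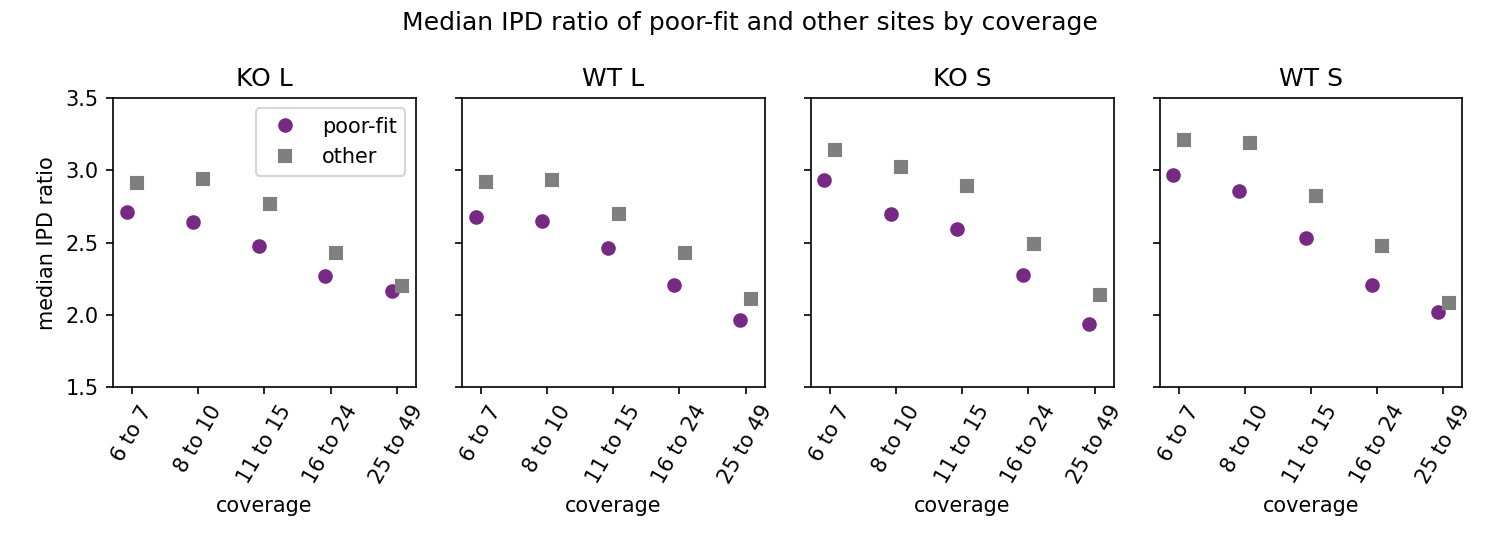
Median IPD ratio of poor-fit (circles) and other sites (squares) by coverage class up to 49, a panel for each list. Poor-fit medians lie below the medians of other sites in all 20 panel and class combinations, and both are lower at a coverage of 25 to 49 than at 6 to 7. At 6 to 7 in KO L they were 2.71 and 2.91.

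The bases next to the called adenine, which the rule did not use directly, differed between poor-fit and other sites. A caller predicts timing from the local sequence, so letters close to the call are not fully independent of the score. A guanine after the called base (AG) was less frequent at poor-fit sites in all 4 lists. AG made up 20.5% of poor-fit and 24.1% of other sites in KO L (204 of 993 and 409 of 1698), and 18.7% and 22.4% in WT L (233 of 1243 and 505 of 2258). In S it made up 23.1% and 29.9% in KO (229 of 991 and 608 of 2034), and 18.6% and 21.9% in WT (382 of 2053 and 996 of 4553). The odds ratio at like coverage, a Mantel-Haenszel ratio over strata of list and coverage, was 0.77 (95% interval 0.709 to 0.836). Within lists it was 0.787 (0.650 to 0.954) in KO L, 0.785 (0.659 to 0.935) in WT L, 0.701 (0.587 to 0.837) in KO S and 0.794 (0.696 to 0.907) in WT S, and each interval excluded 1. At scores of 30 or more the ratio was 0.806 and its interval held 1 (0.63 to 1.03). Against other sites with an identification score of 20 or more it was 0.498 (0.438 to 0.567).

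The adenines around the calls gave a second yardstick. Taking the remaining adenines of these contexts, AG made up 24.3% in KO L, 23.9% in WT L, 25.1% in KO S and 24.2% in WT S around poor-fit sites. The AG share of poor-fit calls was below these values in each list, and in KO S its interval (20.5% to 25.9%) held the surrounding value. Other sites lay near theirs in 3 lists (24.1% against 24% in KO L, 22.4% against 24.1% in WT L, 21.9% against 22.9% in WT S) and above theirs in KO S (29.9% against 24.8%).

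A cytosine before the called base was also less frequent. It stood before 28.2% of poor-fit and 32.5% of other sites over the 4 lists, with an odds ratio of 0.802 (0.745 to 0.863). The ratio was below 1 in each list, and its interval reached 1.00 in KO S (0.848, 0.719 to 1.00). Around the calls a cytosine preceded 22.6% to 24.2% of the other adenines, so both groups exceeded their surroundings in this respect. In KO L the interval of the poor-fit share (26.1%, 23.4% to 28.9%) held the surrounding value of 23.9%. Poor-fit sites had more adenines after the call, at 36.7% against 33.1% (1.24, 1.16 to 1.33), and more thymines before it, at 22.6% against 20.2% (1.14, 1.05 to 1.24). For adenine the ratio was above 1 in each list, and its interval held 1 in KO L (1.17, 0.993 to 1.38). For thymine the interval excluded 1 in KO L (1.28, 1.06 to 1.54) and held it in the other lists. A guanine 2 bases before the call was found at 23.1% of poor-fit and 19.6% of other sites (1.25, 1.15 to 1.35). That ratio was above 1 in each list, from 1.11 in KO S to 1.44 in KO L. In KO S its interval held 1 (0.929 to 1.34).

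**Figure D3:**
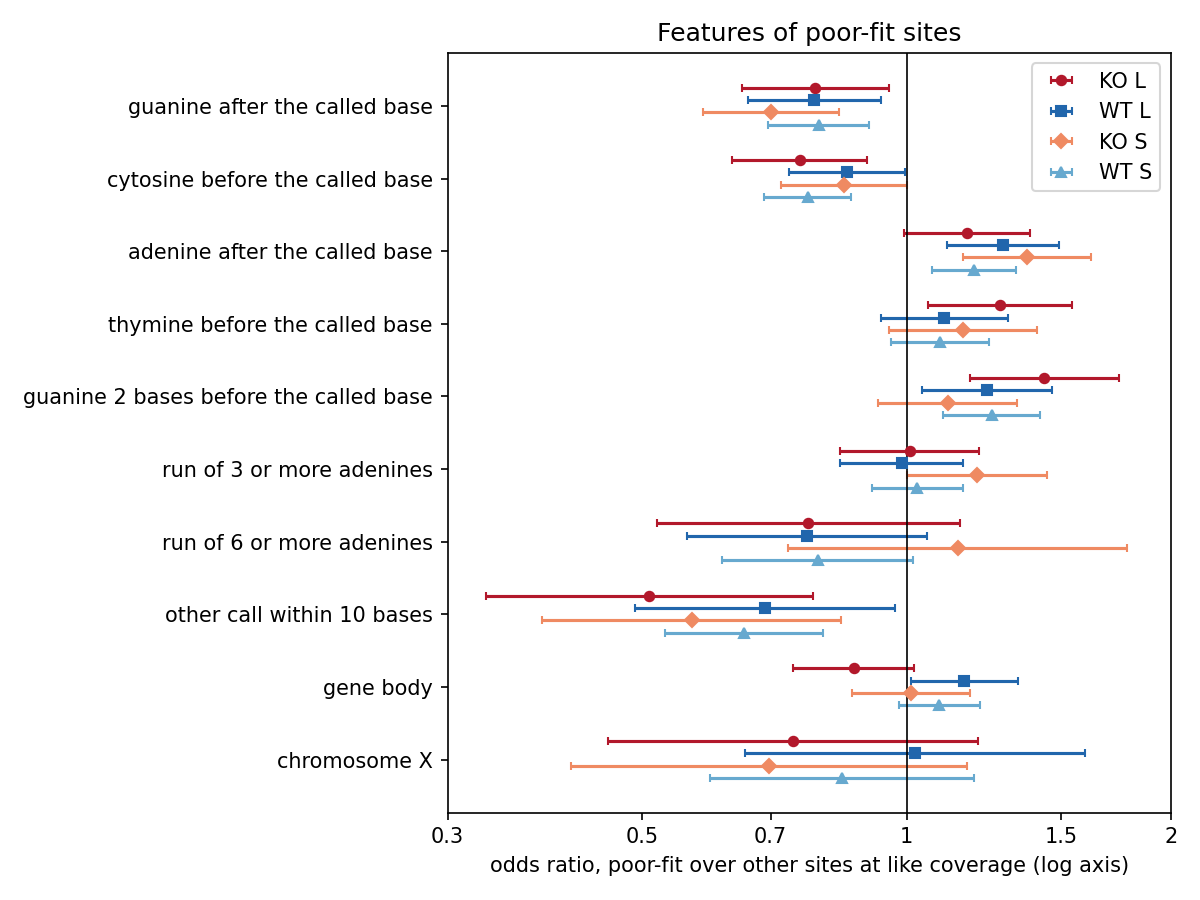
Odds ratio of each feature at poor-fit over other sites at like coverage, on a log axis, for the 4 lists; bars are 95% intervals and the line marks 1. Guanine after the call and another call within 10 bases lie below 1 in all 4 lists, whereas runs of adenines, gene bodies and chromosome X lie on both sides of 1.

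The differences stayed close to the call. Within 4 bases, 13 of 32 combinations of position and base had an interval that excluded 0, with a largest difference of 4.77 percentage points. From 5 to 20 bases away it was 5 of 128, with a largest difference of 2.09 points. The 5 largest differences with the same sign in the 4 lists were adenine after the call (4.77 points), cytosine before it (-4.68), guanine after it (-4.44), guanine 2 bases before it (3.71) and guanine 3 bases before it (-2.46). These 160 combinations were not adjusted for their number.

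Read by trinucleotide, with the called adenine in the middle, the share of poor fits varied by context. Standardised to the coverage and list mix of all sites, it was 41.1% for TAA, 39.8% for AAC and 38.7% for CAA, the 3 highest of 16. The 3 lowest were 24.8% for CAG, 27% for CAT and 30.5% for GAG. TAA was a poor fit at 90 of 194 sites in KO L (46.4%), 109 of 257 in WT L (42.4%), 65 of 164 in KO S (39.6%) and 172 of 475 in WT S (36.2%). CAG was a poor fit at 60 of 192 in KO L (31.3%), 60 of 233 in WT L (25.8%), 64 of 293 in KO S (21.8%) and 113 of 490 in WT S (23.1%). The TAA share lay above the CAG share in each list. CAT was called at 1.59 times its share among surrounding adenines in poor-fit sites and at 2.20 times in other sites. AAC was called less often than its surroundings in both, at 0.629 times in poor-fit and 0.463 times in other sites.

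TAC, singled out after its values were seen, did not behave alike in the lists. It was a poor fit at 59 of 113 sites in KO L (52.2%, 42.6% to 61.7%), 40 of 113 in WT L (35.4%, 26.6% to 45.0%), 26 of 100 in KO S (26%, 17.7% to 35.7%) and 50 of 209 in WT S (23.9%, 18.3% to 30.3%). KO L stood above the other lists, and its interval overlapped that of WT L alone.

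Adenine runs showed no single trend. Runs are stretches of adenines on the strand of the call. A run of 3 or more held 25.4% of poor-fit and 25.3% of other sites (odds ratio 1.04, 0.966 to 1.13). The direction changed with the setting, at 0.726 (0.569 to 0.927) for scores of 30 or more and 1.10 (1.01 to 1.20) with 1 site kept per 1 kb. A run of 6 or more held 4.05% of poor-fit and 5.18% of other sites (0.821, 0.697 to 0.966). By list that ratio ran from 0.771 in WT L to 1.14 in KO S, and each list's interval held 1. By length, the share of poor fits was 30.9% at a lone adenine (2510 of 8123 sites) and 38.8% in a pair (1431 of 3689). It was 35.4% in runs of 3, 34.1% in runs of 4, 31.8% in runs of 5 and 35.9% in runs of 6 to 8. In runs of 9 or more it was 22.9% (104 of 454, exact interval 19.1% to 27%), with 28.6% in KO L, 25.4% in WT L, 25.5% in KO S and 18.8% in WT S. Pairs stood above lone adenines in each list, and the longest runs stood below pairs in each list.

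**Figure D4:**
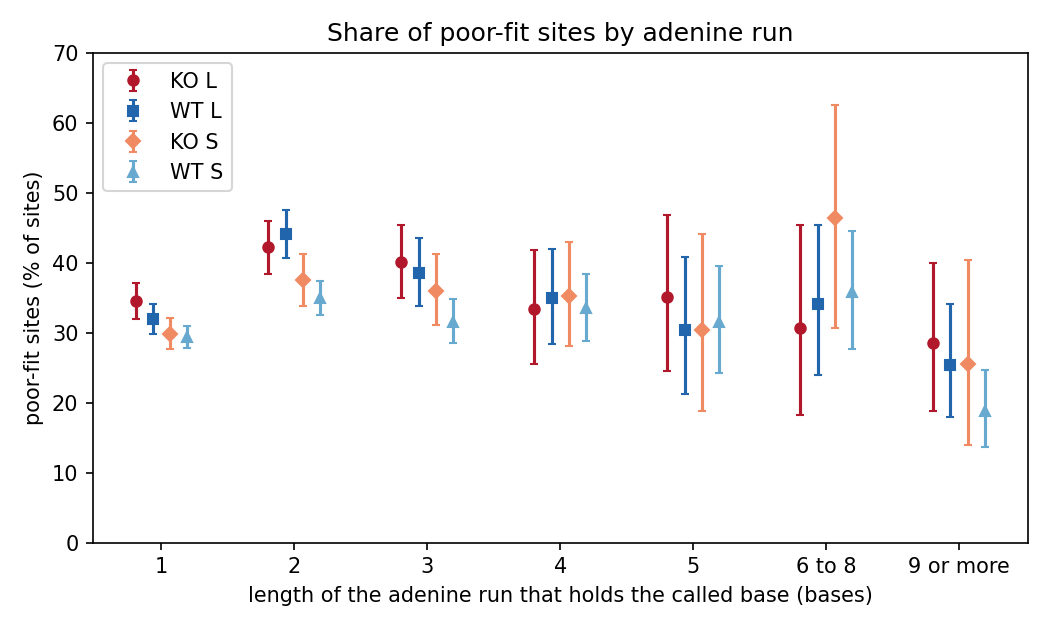
Share of poor-fit sites (% of sites) by the length of the adenine run that holds the called base, for the 4 lists; bars are exact 95% intervals. Pairs (38.8% over the 4 lists) lie above lone adenines (30.9%), and runs of 9 or more lie lowest over the 4 lists (22.9%).

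Within a run of 6 or more, poor fits were less frequent at inner adenines over the 4 lists, with overlapping intervals. They made up 161 of 618 calls inside the run (26.1%, 22.6% to 29.7%), 36 of 100 at its first adenine (36.0%, 26.6% to 46.2%) and 17 of 42 at its last (40.5%, 25.6% to 56.7%). In KO L the order was not seen, with 31 of 105 inside (29.5%), 5 of 17 at the first (29.4%) and 1 of 4 at the last. In runs of 2 to 5 the shares were 37.8% at the first, 34.4% inside and 36.7% at the last adenine. Where 9 adenines in a row were centred on the call, 53 of 272 sites were poor fits (19.5%, 14.9% to 24.7%). Where the call was the centre of an alternating AC repeat of 9 bases, 14 of 23 were (60.9%, 38.5% to 80.3%), or 43.8% standardised for coverage and list. The AC repeat was singled out after its values were seen, and with 3 or 4 poor-fit sites in each list it rests on few sites. The 5280 poor-fit sites had 4654 different sequences over the central 9 bases, and 4192 of them had a core found at no other poor-fit site. Like counts for other sites are not given here, so this is a description and not a trait of poor fits.

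Base composition in the wider context differed by little. The mean GC content of the 40 bases around the call was 41.8% at poor-fit and 42% at other sites (SD over sites 11.5 and 11.9), a difference at like coverage of -0.262 points (-0.653 to 0.129). The interval excluded 0 at a cut of 7 (-0.402, -0.773 to -0.031), with 1 site kept per 1 kb (-0.548, -0.961 to -0.135) and, as a setting chosen after seeing the data, without adenine runs of 6 or more (-0.513, -0.899 to -0.128), while at a coverage of 11 or more the difference was 0.215 (-0.338 to 0.769). A CpG was present in 27.9% of poor-fit and 29.6% of other contexts (odds ratio 0.944, 0.877 to 1.02). The plus strand held 50.4% and 50.1%.

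Poor-fit sites had fewer called neighbours. Another called base of the same list lay within 10 bases of 239 of 5280 poor-fit sites (4.53%) and of 873 of 10543 other sites (8.28%), or 6.89% at like coverage. The odds ratio was 0.626 (0.538 to 0.728), and it was 0.509 in KO L, 0.690 in WT L, 0.569 in KO S and 0.653 in WT S, where each interval excluded 1. Over the 4 lists, neighbours on the same strand were most frequent 2 bases away, though not among poor-fit sites of KO L and WT L nor among other sites of KO S. At 2 bases in the 3′ direction they numbered 3.03 per 1000 poor-fit and 11.4 per 1000 other sites, and in the 5′ direction 4.55 and 10.6. Whether the caller scores neighbouring calls jointly is not given in the sources used here. Among 515 pairs of same-strand calls within 10 bases, both were poor fits in 27, 1 of them in 143 and neither in 345.

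**Figure D5:**
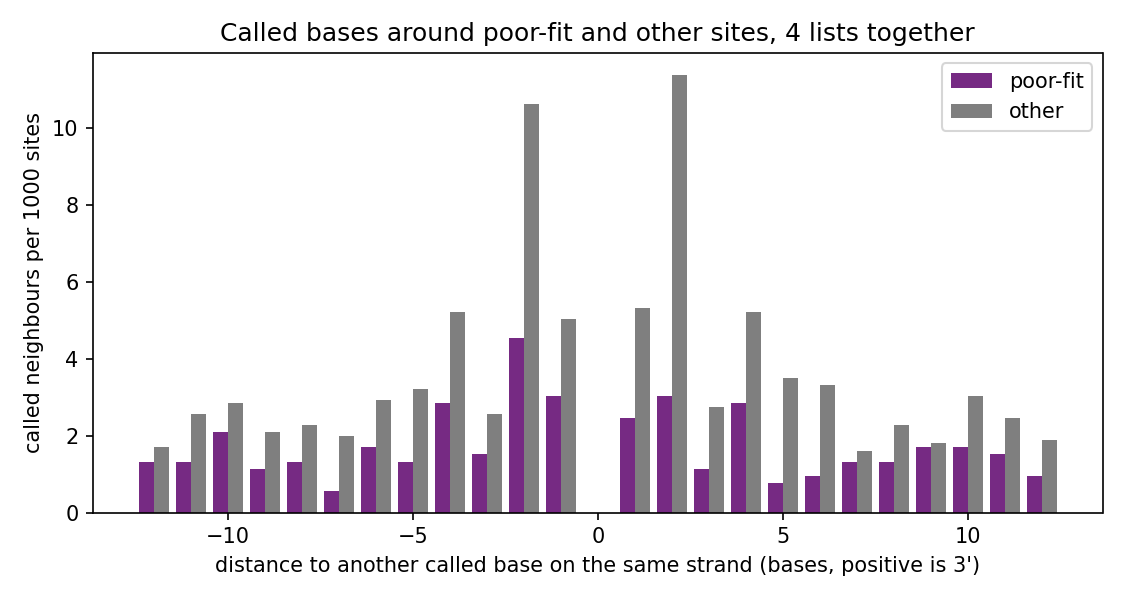
Number of other called bases on the same strand per 1000 sites, by distance in bases from poor-fit and other sites, the 4 lists together. Counting both directions, both groups have most neighbours at a distance of 2, where poor-fit sites have 3.03 (3′) and 4.55 (5′) per 1000 and other sites 11.4 and 10.6.

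Poor-fit bases were almost never called again. Outside the 4 regions 15 bases were called in 2 or more lists, and 1 of them was a poor fit in any list. That base, on the unplaced contig GL456389 at position 10694, had an identification score of 4, a coverage of 34 and an IPD ratio of 2.56 in WT S. In WT L its identification score was 8, its coverage 22 and its IPD ratio 3.58. So 1 of 5280 poor-fit sites was called in another list (0.0189%, 0.00048% to 0.105%), against 42 of 10543 other sites (0.398%, 0.287% to 0.538%). A base was counted once for each list that called it. Most of the recurrent other sites lay between 35305216 and 35305503 on chromosome 9, so they were not independent as the interval assumes. Most of the recurrent other sites were also very deep. At a coverage of up to 100 the shares were 1 of 5277 poor-fit sites and 8 of 10494 other sites (0.0762%, 0.0329% to 0.150%), and the 2 intervals overlapped. A base missing from a list may have been too shallow there to be called, since the lists give no depth at uncalled bases.

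Poor-fit sites were spread over all chromosomes at near the same share. It ranged from 29.8% on chromosome X (122 of 410 sites) to 36.1% on chromosome 2 (371 of 1029), against 33.4% over all. Of 21 chromosomes only chromosome 3 had an odds ratio against the rest whose interval excluded 1 (255 of 841 sites, 30.3%; 0.853, 0.733 to 0.993), which was not adjusted for the 21 looked at. Chromosome X held 2.31% of poor-fit and 2.73% of other sites (0.830, 0.669 to 1.03). By list its numbers of poor-fit sites were 25 of 79 in KO L, 31 of 89 in WT L, 20 of 77 in KO S and 46 of 165 in WT S. At a cut of 7 the odds ratio was 0.756 (0.619 to 0.924). Chromosome Y held 55 poor fits among 175 sites (31.4%).

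Gene bodies held 2774 of 5263 poor-fit sites on chromosomes 1 to 19, X and Y (52.7%) and 5411 of 10494 other sites (51.6%), with an odds ratio of 1.05 (0.980 to 1.12). The direction differed between lists, at 0.871 in KO L (0.743 to 1.02), 1.16 in WT L (1.01 to 1.34), 1.01 in KO S (0.868 to 1.18) and 1.09 in WT S (0.981 to 1.21). Windows from 250 bases before to 50 bases after an annotated start held 21 poor-fit sites (0.398%) and 36 other sites (0.342%).

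No gene gathered many poor-fit sites. They lay in 2333 genes, where 5021 genes held a site. Of the 2333, 442 held 2 or more poor-fit sites, and the most in 1 gene was 6. Like numbers for other sites are not given here, so these counts are a description and not a trait of poor fits. The 6 genes or loci with 6 were long. Dpp6 (chromosome 5, 26817357 to 27727500), which encodes an auxiliary subunit of potassium channels, had 6 poor-fit and 2 other sites. Its poor fits numbered 0 in KO L, 3 in WT L, 1 in KO S and 2 in WT S, and the 3 in WT L had IPD ratios of 1.68, 1.82 and 2.04 over 283427 bases. Asic2, an acid-sensing ion channel gene (chromosome 11, 80880163 to 81968396), had 6 and 3, with 1, 2, 2 and 1 poor fits in KO L, WT L, KO S and WT S. Nrxn3, which encodes the synaptic adhesion protein neurexin 3 (chromosome 12, 88722701 to 90334935), had 6 and 2. Auts2 (chromosome 5, 131437333 to 132543220) had 6 and 7. The immunoglobulin loci Igh and Igk had 6 and 8, and 6 and 18.

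Other genes followed with 5 each. Cacna1a, a calcium channel subunit gene (chromosome 8, 84338631 to 84640251), had 5 and 4, with 3, 1, 1 and 0 poor fits in KO L, WT L, KO S and WT S. Its 4 other sites were all in KO S. Zfp978, a zinc finger gene, had 5 and 7, and the phospholipid flippase gene Atp8a2 had 5 and 3. Of the 10 genes or loci with most poor-fit sites, 9 were over 100 kb, and the ranking by number favours long genes.

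Genes linked to the biology of the modification held small numbers of poor-fit and of other sites. The 24 genes of adenine and cytosine methylation and AlkB enzymes held 6 poor-fit and 4 other sites. Fto, an RNA adenine demethylase gene (chromosome 8, 91313367 to 91668433), held 3 and 1 of these, with a poor fit each in WT L, KO S and WT S. Dnmt1 and Dnmt3b, which encode cytosine DNA methyltransferases, and Tet2, a methylcytosine oxidase gene, held 1 poor fit each. The 18 genes of the DNA break response, in which H2A.X acts, held 3 and 12. Brca1, a repair gene (chromosome 11, 101488761 to 101551955), held 2 of the 3, in KO S and WT S, and the kinase gene Atm held the other beside 5 other sites. Among 26 pluripotency genes there were 3 and 3, with a poor fit each in Esrrb, Stat3 and Tcl1. Listed genes with a single poor fit were named after their values were seen. With 33.4% of all sites poor fits, numbers this small say nothing particular about these lists.

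The genotypes had nearly the same share of poor fits at like coverage. In L it was 36.9% in KO and 35.6% in WT weighted to the coverage of KO, an odds ratio of 1.06 (0.952 to 1.18). In S it was 32.8% in KO and 32.5% in WT weighted likewise, an odds ratio of 1.00 (0.910 to 1.10). Neither interval excluded 1. Between the parts, the share in L exceeded that in S within both genotypes. In KO it was 36.9% in L and 33.7% in S at like coverage (1.16, 1.03 to 1.29), and in WT 35.5% and 33.1% (1.10, 1.01 to 1.21). Both intervals excluded 1 and came close to it. The shares compared here come from the score that set the cut, with 1 list in each group. These ratios and their intervals are therefore a description and not a test. In WT the ratio was 0.785 at scores of 30 or more (0.588 to 1.05) and 1.04 at a coverage of 11 or more (0.911 to 1.18). In KO it was 1.11 at a cut of 7 (0.997 to 1.23).

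The last comparison asked whether the higher share of AG in KO lay in the poor-fit sites. Among poor-fit sites in S, AG made up 23.1% in KO (229 of 991) and 18.6% in WT (382 of 2053), an odds ratio of 1.25 (1.03 to 1.5). With 1 site kept per 1 kb it was 1.19 (0.971 to 1.45). Among other sites in S it made up 29.9% in KO and 21.9% in WT (1.46, 1.29 to 1.64). The first ratio over the second was 0.855 (0.683 to 1.07), so the genotype difference was not shown to differ between poor-fit and other sites. In L the ratios were 1.14 (0.919 to 1.40) among poor-fit sites, at 20.5% in KO and 18.7% in WT, and 1.12 (0.967 to 1.3) among other sites. Across the identification score in KO S, AG stood at 19.5%, 25.4% and 23% for scores of 3, 4 and 5, and at 32.1%, 32.5%, 28.6%, 20.1% and 26.7% for 6 to 10, with no steady course. In WT S it stood at 17.8%, 19.5% and 18.1%, and at 19.9%, 20.3%, 17.9%, 18.5% and 18.6% for 6 to 10.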

How the data were processed

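H2A.X-bound DNA of 8 samples was read by single-molecule real-time sequencing. Both replicates of a group pointed to 1 list per the labels, so the lists could not be split. Positions are in mm10, as the submitters' processing notes name that build. No source used here names the caller, aligner or filters.

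In the deposited lists each line is 1 called adenine with a modification score, an identification score, an IPD ratio (a linear ratio), a coverage (a signal without normalization) and, at coverage of 11 or more, a modified fraction. The authors' values were used unchanged. No source states the scale of either score. Depth at uncalled bases is unknown.

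The cut at 5, the gene lists and the comparisons were chosen with earlier results of these data known. Poor-fit and other sites were compared by Mantel-Haenszel odds ratios with 95% Robins-Breslow-Greenland intervals, or by stratified mean differences. Strata were the list and coverage, as single values up to 30 and classes to 40, 60, 100 and above. Shares have exact Clopper-Pearson intervals. No p-value was computed, since each group has 1 list. Both statistics were tested on simulated data built on the real strata. The simulated sites were drawn independently, so that test does not cover clustered calls or shared reads. Alternatives were another cut, other strata, stricter coverage or score, the regions kept in, thinned sites and another comparison group.

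Sites and genes were named by rule: the 2 highest poor-fit sites per list in coverage, IPD ratio and score (printed for some), bases called in 2 lists, the 10 genes with most poor-fit sites, members of 3 gene lists with 2 or more, and the 3 highest and 3 lowest trinucleotides and 5 largest position differences. A gene that the rule took is not reported here. Genes came from a RefSeq table of GRCm38.p6 with 49939 genes, from start to end without exons, so a site in a gene may be exonic or intronic. Python 3.11.15, pandas 2.3.3, numpy 2.4.6 and scipy 1.17.1 were used.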

Additional observations from a re-analysis of the deposited data

Results flagged for a closer look

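In 3 of 68 comparisons of a feature's odds ratio (poor-fit over other sites at like coverage) between 2 lists, the interval of the ratio of the odds ratios excluded 1. By counting error alone about 1 in 20 such intervals would do so, for independent comparisons of features chosen beforehand. TAC was singled out after its values were seen, so that rate does not apply to it. Its comparisons given here also share the KO L odds ratio. For TAC the ratio was 1.97 for KO L over WT L (1.14 to 3.40), from odds ratios of 1.90 and 0.966, and 2.56 for KO L over KO S (1.42 to 4.64), from 1.90 and 0.741. For gene bodies it was 0.748 for KO L over WT L (0.605 to 0.925), from 0.871 and 1.16. No replicate of a list was available to check these differences.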

How the results depend on the processing

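Of 151 repeats of the results under other settings, 110 kept the direction and the side of the interval or stayed within it. The lower odds of a called neighbour kept both in all 11 alternatives (0.385 to 0.686), and so did the KO to WT ratio of poor-fit shares in L in 10, none of which excluded 1 (1.02 to 1.3). The others were as follows, and the cause was not tested. With a cut at 3, the ratio of poor-fit shares was 1 for KO to WT in S, 1.01 for L to S in WT and 1.11 for L to S in KO, the GC difference was 0.372 points, the gene body odds ratio 1.12, the KO to WT odds ratio of AG among poor-fit sites 0.856 in L and 1.07 in S, the IPD ratio difference -0.23, and 0% of poor-fit sites recurred. With a cut at 7, the ratio of shares was 1.05 for KO to WT in S and 1.11 for L to S in KO, the GC difference -0.402 points, the chromosome X odds ratio 0.756, the IPD ratio difference -0.3 and the score difference -2. Without coverage strata, the ratio of shares for KO to WT in S was 1.08 and the IPD ratio difference -0.21. With strata of coverage and score, the ratio for L to S in WT was 1.07, the IPD ratio difference -0.17 and the score difference 0. At a coverage of 11 or more, the ratio for L to S in WT was 1.04, the odds ratio of runs of 3 or more adenines 0.971, the GC difference 0.215 points and the score difference -2. At a score of 30 or more, the ratio for L to S was 0.785 in WT and 1.22 in KO, the AG odds ratio 0.806, that of runs 0.726, the GC difference 0.171 points, the KO to WT odds ratio of AG in S 1.48, the IPD ratio difference -0.31 and the score difference -2. With 1 site per 1 kb, the odds ratio of runs was 1.1, the GC difference -0.548 points and the KO to WT odds ratio of AG in S 1.19. Against other sites with an identification score of 20 or more, the chromosome X odds ratio was 0.684, the IPD ratio difference -0.72 and the score difference -4. With the 4 regions kept in, 1.47% of poor-fit sites recurred. Without adenine runs of 6 or more, a setting chosen after seeing the data, the odds ratio of runs was 1.09 and the GC difference -0.513 points.

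The KO to WT ratio of shares in S lay so near 1 that its direction carries no weight. No paired analysis was possible because each list holds both replicates of its group and no column carries a replicate number. Leaving out a replicate was not possible for the same reason. Depth at uncalled bases was not listed, so neither the recurrence of a base nor the absence of a call from a gene can be set against depth, and most sites rest on a coverage of 6 to 24.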
